A study of Mus musculus with 10 samples.

Results

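The genes described here are those of the MHC class I molecule in mouse hippocampus: 7 heavy chain genes, H2-K1, H2-D1, H2-T22, H2-T23, H2-Q4, H2-Q6 and H2-Q7, and B2m, the gene of the shared light chain. They were taken by symbol, 8 genes of 21956 in the deposited table, and all 8 passed the filter on low counts. Hippocampal RNA of mice labelled hMapt, which carry the human tau gene, was sequenced in 10 libraries, with an age of 6 months on every label. Mice of the 5 circTau6 libraries had received an injection of an adeno-associated virus (a gene delivery vector) with circTau6, a circular RNA derived from the tau gene, 80 days before. Those of the 5 control libraries had a control injection. What it held, the promoter of the vector and the construct that drives human tau were not in the labels. Both groups carry the same human tau genotype, so no library shows class I levels without it. The members were chosen by their measured circTau6 against control values in these same libraries, so that difference is given below as a description and carries no test.

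A class I molecule is a heavy chain bound to beta-2-microglobulin, the B2m product, and it carries a short peptide to the cell surface. H2-K1 and H2-D1 are the classical heavy chains, which show peptides of the cell's own proteins to CD8 T cells. The Q and T region genes encode non-classical chains: H2-Q6 and H2-Q7 encode Qa-2 molecules, H2-T23 encodes Qa-1, a ligand of the NK cell receptor pair CD94 and NKG2A, and H2-T22 encodes a chain that gamma delta T cell receptors recognise. In healthy brain, endothelial cells and microglia are the main carriers of class I. In mice class I molecules of neurons are also known to act in the pruning and plasticity of synapses. Interferons raise class I transcription through a short upstream region that also holds sites for NF-kB and for the transactivator Nlrc5 and its partners.

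The 7 heavy chain genes lie on chromosome 17 of GRCm38 within 2.05 Mb, from 33996017 to 36042747, and B2m lies on chromosome 2 from 122147686 to 122153083. H2-K1 sits alone at the centromeric end, from 33996017 to 34000347 on the minus strand. H2-D1, from 35262730 to 35267499 on the plus strand, opens a run with H2-Q4 (35379617 to 35385290), H2-Q6 (35424850 to 35430055) and H2-Q7 (35439155 to 35443773), all on the plus strand. H2-T23 (36029773 to 36032855) and H2-T22 (36037128 to 36042747) follow on the minus strand. These positions come from GENCODE release M21, joined through the Ensembl gene identifiers, because no label names the authors' build.

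The upstream sequences show what the heavy chains share and where they part. The 250 bases before each RefSeq gene start (GRCm38.p6) were searched on both strands for an NF-kB motif (4 G, A, 2 T and 3 C in a row), a shorter form of it, GGGANTTCC, and 2 forms of the interferon response element. The heavy chain form is GAA, any 2 bases and GAAAC, and the repeat form is GAAA, any 2 bases and GAAA. Of the heavy chains, 5 carried an NF-kB match followed at once by an interferon element match read from the other strand. Those stretches are printed because they are nearly the same letters in all 5 genes, with the matches in capitals:
H2-K1: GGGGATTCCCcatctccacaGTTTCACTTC
H2-D1: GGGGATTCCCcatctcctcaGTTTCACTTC
H2-Q6: GGGGATTCCCcatctccccaGTTTCACTTC
H2-Q7: GGGGATTCCCatctccccaGTTTCACTTC
H2-Q4: GGGATTTCCcatctccccaGTTTCACTTC

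The stretch begins 111 bases before the start in H2-K1 (chr17:34000429-34000458, minus strand) and 171 bases before it in H2-D1 (chr17:35262923-35262952, plus strand). In H2-Q7 (chr17:35439022-35439050) 1 base between the matches is lacking, and H2-Q4 (chr17:35379444-35379472) carries the shorter NF-kB form. H2-Q6 (chr17:35424677-35424706) has the long form again. The 10-letter NF-kB match was present in 28 of 32851 upstream windows of the mouse genome (0.0852%) and in 4 of the 8 members. The shorter NF-kB form was present in 470 windows (1.43%) and in 1 of the 8 members, and it did not overlap the longer one in any member. The heavy chain form of the interferon element was present in 476 windows (1.45%) and in 5 of the 8 members.

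H2-T22, H2-T23 and B2m had no match to either NF-kB form searched in this window, and other NF-kB forms were not searched. These genes carried the repeat form of the interferon element, which 978 windows hold (2.98%). They are printed with 10 bases on either side and the match in capitals, to show how they differ from the stretch above:
B2m: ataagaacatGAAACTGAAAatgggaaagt
H2-T22: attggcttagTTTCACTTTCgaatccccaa
H2-T23: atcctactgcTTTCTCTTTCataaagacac

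These lie at chr2:122147538-122147567 (plus strand), chr17:36042914-36042943 (minus strand) and chr17:36032806-36032835 (minus strand). TGACG, the core of the CRE-like element to which partners of Nlrc5 bind, was found in 6 of the 8 members and in 17.8% of all windows. CCAAT, the Y box, was found in 8 of 8 and in 33.9% of all windows. H2-Q6 and H2-T23 lacked TGACG. For the complete arrangement the window of H2-K1 (chr17:34000348-34000597, minus strand) and that of B2m (chr2:122147437-122147686, plus strand) are given, with all NF-kB, interferon element, TGACG and CCAAT matches in capitals:
H2-K1: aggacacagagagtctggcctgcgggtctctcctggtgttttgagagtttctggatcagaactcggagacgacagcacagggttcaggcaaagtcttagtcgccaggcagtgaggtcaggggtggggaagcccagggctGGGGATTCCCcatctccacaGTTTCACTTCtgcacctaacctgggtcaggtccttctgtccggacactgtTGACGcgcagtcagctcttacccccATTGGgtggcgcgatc
B2m: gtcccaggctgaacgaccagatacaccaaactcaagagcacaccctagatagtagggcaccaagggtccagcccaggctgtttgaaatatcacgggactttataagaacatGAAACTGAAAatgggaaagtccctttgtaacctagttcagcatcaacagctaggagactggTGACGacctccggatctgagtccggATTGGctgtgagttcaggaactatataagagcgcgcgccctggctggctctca

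A match is a run of letters and no measure of binding. For H2-D1 and H2-T23 the GENCODE gene begins farther upstream than the RefSeq start, so 250 and 154 bases of their windows lie inside the GENCODE gene.

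**Figure D1:**
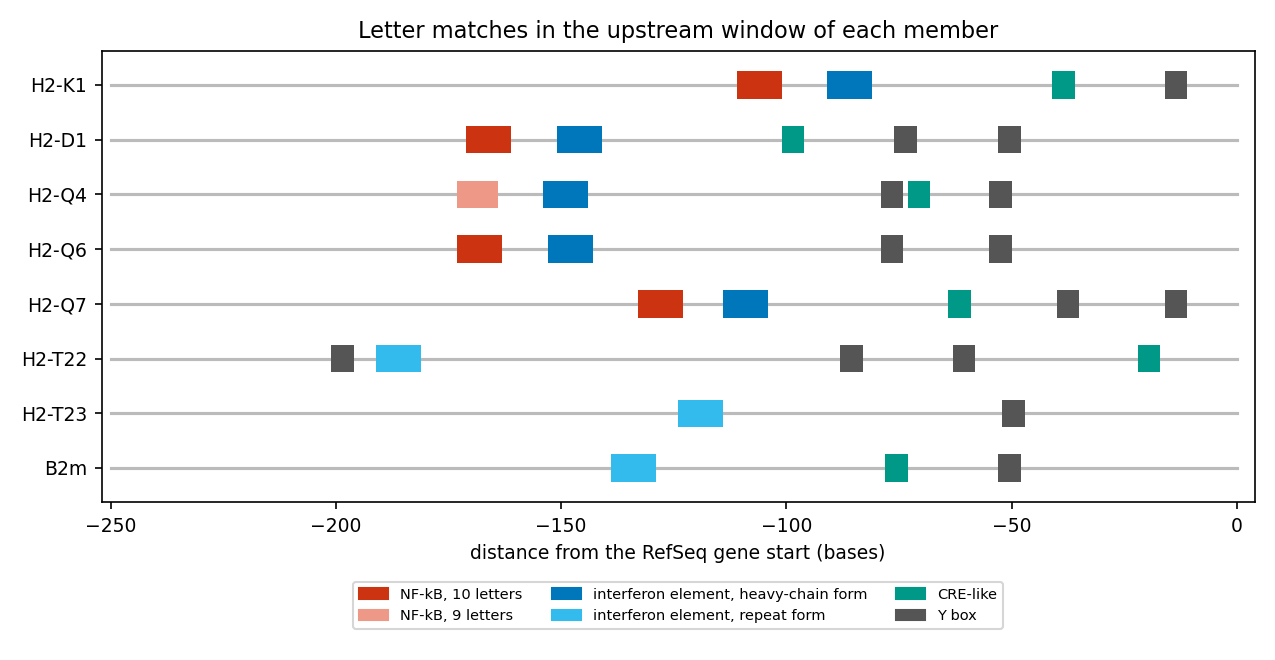
Letter matches in the 250 bases before the RefSeq start of each member, with the distance from the start in bases on the x axis and 1 row per gene; coloured blocks are NF-kB, interferon element, CRE-like and Y box matches on either strand. An NF-kB block stands directly before an interferon element block in H2-K1, H2-D1, H2-Q4, H2-Q6 and H2-Q7. No block of either NF-kB form searched is seen in H2-T22, H2-T23 and B2m, and other forms were not searched.

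Total counts were 14762952 to 17647138 per library, of which 2342 to 6768 fell on the 8 members. Control replicate 2 and circTau6 replicate 5 stood apart in choroid plexus genes, which secretes cerebrospinal fluid in the ventricles: its 13 markers summed to 265 and 246 CPM (counts scaled to a common library total) in them and to 2253 to 6121 CPM in the others. Results that turn on these libraries are given with and without them. The tissue label was checked with 10 hippocampal neuron markers, of which 10 passed the filter, with sums of 834 to 972 CPM. The labels name no batch and do not say whether each library is a separate mouse.

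B2m was the most abundant member in every library. In TPM (abundance scaled for transcript length and library total), its control level of 266 ± 46.9 (SD, n = 5) exceeded that of 98.0% of the genes in the table. H2-D1 had 55.7 ± 12.5 and H2-K1 48.2 ± 10.3 TPM (SD, n = 5), above 85.2% and 82.8% of genes. H2-T22 at 16.3 ± 1.94, H2-T23 at 13.6 ± 4.67 and H2-Q4 at 9.16 ± 3.59 TPM followed, and H2-Q6 at 2.60 ± 1.76 and H2-Q7 at 1.99 ± 0.875 TPM closed the order (SD, n = 5 each).

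The order of levels was tested within libraries on log2(TPM + 0.1), over all 10 libraries, with an exact two-sided sign-flip permutation test for each of the 7 neighbours in the order. B2m lay above H2-D1 by 2.15 ± 0.188 on the log2 scale (SD, n = 10), H2-D1 above H2-K1 by 0.23 ± 0.0993, and H2-K1 above H2-T22 by 1.70 ± 0.332. Each of these held in 10 of 10 libraries, with an adjusted p of 0.00342 from the exact test. H2-T23 lay above H2-Q4 by 0.54 ± 0.431 in 9 of 10 libraries (exact adjusted p = 0.0082), and H2-Q4 above H2-Q6 by 1.64 ± 0.449 in 10 of 10 (exact adjusted p = 0.00342). Of the 7 neighbours 2 did not differ beyond their spread. H2-T22 exceeded H2-T23 in 6 of 10 libraries (0.18 ± 0.362, exact adjusted p = 0.198), and H2-Q6 exceeded H2-Q7 in 7 of 10 (0.23 ± 0.873, exact adjusted p = 0.414). The order was taken from these same libraries, so the test measures only how steadily each difference held across them. An error in the TPM of a gene that all libraries share would not show in it.

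Relatedness bears on how well these levels are separated. The coding sequences of the heavy chains were 80.1% to 95.7% identical in their 21 pairs, with H2-Q6 and H2-Q7 at the top and H2-K1 and H2-T22 at the bottom. H2-K1 and H2-D1 were 92.6% identical. In windows of the read length, 150 bases, 11.6% of the H2-Q7 transcript and 5.99% of the H2-Q6 transcript matched another gene exactly, mostly each other. For H2-D1, H2-T22 and H2-T23 this share was 1.79%, 0.931% and 0.831%, and for H2-K1, H2-Q4 and B2m it was 0%. At 75 bases it was 27.5% for H2-Q7, 26.1% for H2-T22 and 17.9% for H2-Q6. The values of H2-Q6 and H2-Q7 are therefore uncertain, as the authors' counting could have moved reads between them. They are also the least deeply counted members, with 12 to 115 and 7 to 86 counts per library.

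Both classical heavy chains were higher in every circTau6 library than in any control. H2-K1 had 58.5, 58.7, 46.0, 35.1 and 43.0 TPM in control replicates 1 to 5 and 93.1, 97.9, 81.7, 85.9 and 59.4 TPM in circTau6 replicates 1 to 5. The groups did not overlap, but circTau6 replicate 5 was only just above the highest controls, replicates 1 and 2. The edgeR log2 fold change was 0.78 ± 0.17 (SE), or 1.72-fold. H2-D1 had 65.0, 70.9, 50.2, 39.3 and 53.0 TPM in control and 105, 126, 103, 91.1 and 73.8 TPM in circTau6 libraries. Here too the groups did not overlap, with circTau6 replicate 5 the lowest of its group, and the log2 fold change was 0.82 ± 0.18 (SE), or 1.76-fold.

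B2m followed at a smaller fold change. It had 338, 287, 231, 224 and 252 TPM in control and 471, 516, 384, 366 and 304 TPM in circTau6 libraries. The groups overlapped through a high control replicate 1 and a low circTau6 replicate 5, and 4 of 5 circTau6 libraries lay above every control. The log2 fold change was 0.60 ± 0.17 (SE), or 1.52-fold.

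H2-T22 varied least among the members and had the smallest fold change. Its levels were 19.3, 14.9, 15.4, 14.8 and 17.2 TPM in control and 23.2, 20.6, 26, 21.6 and 21.6 TPM in circTau6 libraries, with no overlap. The log2 fold change was 0.46 ± 0.10 (SE), or 1.37-fold. Its neighbour H2-T23, the Qa-1 chain, had 21.7, 9.78, 12.6, 12.8 and 11.3 TPM in control and 25.4, 20.5, 28.7, 25.4 and 13.1 TPM in circTau6 libraries. Control replicate 1 stood far above the other controls and circTau6 replicate 5 reached only their level, so the groups overlapped. The log2 fold change of H2-T23 was 0.72 ± 0.25 (SE), or 1.65-fold.

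The Q region genes had the widest relative spread among controls, with a coefficient of variation of 39.3% for H2-Q4, 67.5% for H2-Q6 and 43.9% for H2-Q7. Among circTau6 libraries it was 18.3%, 22.9% and 50.8%, beside 26.8% for H2-T23. H2-Q4 had 13.8, 11.1, 9.50, 4.71 and 6.66 TPM in control and 17, 18.6, 16.7, 16.3 and 11 TPM in circTau6 libraries, where replicate 5 lay within the control range. The log2 fold change was 0.78 ± 0.25 (SE). H2-Q6 had 5.29, 2.97, 2.70, 1.02 and 1.03 TPM in control and 6.82, 7.94, 7.11, 5.25 and 4.4 TPM in circTau6 libraries. Its control values covered a 5.18-fold range, and its log2 fold change was 1.29 ± 0.39 (SE). H2-Q7 had 1.83, 2.09, 1.80, 0.902 and 3.33 TPM in control and 4.54, 10.6, 2.99, 5.15 and 5.10 TPM in circTau6 libraries. The high value belonged to replicate 2, replicate 3 lay below control replicate 5, and the log2 fold change was 1.45 ± 0.36 (SE).

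**Figure D2:**
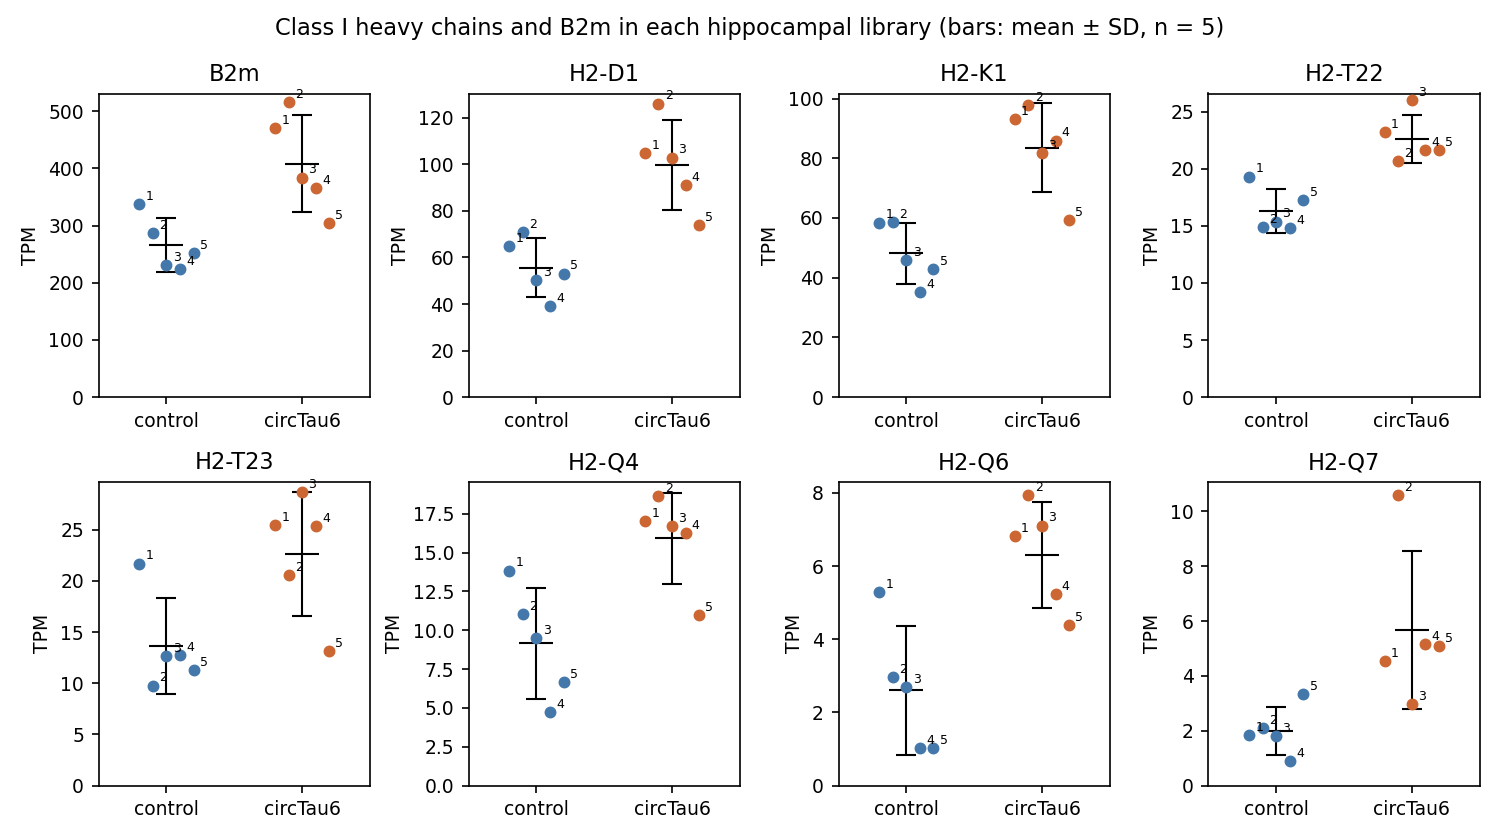
TPM (y axis, from 0) of each member in the 5 control and 5 circTau6 libraries; points are libraries numbered by replicate, and black bars are the mean and SD (n = 5). The groups do not overlap for H2-K1, H2-D1 and H2-T22, and circTau6 replicate 5 is the lowest circTau6 library for 6 of the 8 members.

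Across the 8 members the median log2 fold change was 0.78, with a range of 0.46 to 1.45 and 8 of 8 above 0. Over all 14396 genes tested the median was −0.0002, and 49.9% lay above 0. Every circTau6 library exceeded every control for 3 of the 8 members and for 0.563% of all tested genes. With edgeR's quasi-likelihood test and Benjamini-Hochberg adjustment over all genes, 0 of 8 members passed a threshold of 0.05, and 0% of all tested genes were called higher. At an unadjusted p under 0.05 the edgeR counts were 8 of 8 members and 2.58% of all genes with higher values after circTau6, and 0 of 8 and 1.85% with lower values. DESeq2 called 2 members, H2-K1 and H2-D1, and 0.0602% of all genes higher, and limma voom called 0. Because the members were listed with this contrast known, nothing is read from these counts. In bulk tissue a larger number of class I bearing cells and more class I RNA per cell cannot be told apart.

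The classical chains supplied most of the heavy chain RNA in both groups. H2-K1 and H2-D1 together made up 70.3% ± 3.58 of the summed heavy chain TPM in control and 71.3% ± 1.79 in circTau6 libraries (SD, n = 5 each). H2-T22 made up 11.3% ± 1.93 and 9.03% ± 1.73. H2-Q6 made up 1.65% ± 0.844 and 2.44% ± 0.236. The summed heavy chains were 148 ± 30.4 TPM in control and 257 ± 42.4 TPM in circTau6 libraries (SD, n = 5 each). B2m stood at 1.82 ± 0.157 times that sum in control and 1.59 ± 0.130 times in circTau6 libraries, with overlapping ranges of 1.68 to 2.06 and 1.44 to 1.71. The 7 heavy chain count rows were also summed to 1 row before the fit, so that reads moved among these 7 genes could not affect it. Reads moved to or from other genes still could, as H2-T22 shared 20.1% of its 75-base windows with H2-T10. The log2 fold change of the sum was 0.78 ± 0.17 (SE). Without the choroid-poor libraries that value was 0.94 ± 0.15 (SE), and the median over the 8 members was 0.96.

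Within each group some members varied together from library to library. This was measured on log2 CPM after subtracting the mean of the library's own group, so the difference between groups plays no part, and was tested by permuting libraries inside each group in every possible way (exact, two-sided). Of 28 pairs, 10 passed by Pearson r after Benjamini-Hochberg adjustment, and these were exactly the 10 pairs among H2-K1, H2-D1, B2m, H2-Q4 and H2-Q6. By Spearman rho 9 of them passed, all but B2m and H2-Q6 (rho 0.71, exact p = 0.0226, adjusted 0.0634). H2-K1 and H2-D1 had a Pearson r of 0.94 (exact p = 0.00104, adjusted 0.00826) and a Spearman rho of 0.87 (exact p = 0.00382, adjusted 0.0178), and r was 0.91 without the 2 libraries farthest from the median of H2-K1. H2-K1 and B2m, on different chromosomes, had an r of 0.88 (exact p = 0.00118, adjusted 0.00826), a rho of 0.88 (exact p = 0.00181, adjusted 0.0160) and an r of 0.87 without 2 libraries. H2-Q4 and H2-Q6 had the highest r, 0.95 (exact p = 0.000139, adjusted 0.00194), with a rho of 0.98 (exact p = 0.000278, adjusted 0.00778) and an r of 0.89 without 2 libraries.

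H2-Q7, H2-T22 and H2-T23 were in 0 of the 10 pairs that passed. H2-Q6 and H2-Q7, the closest pair by sequence, had an r of 0.12 (exact p = 0.799, adjusted 0.799), a rho of 0.38 (exact p = 0.328, adjusted 0.483) and an r of 0.19 without 2 libraries. The T region neighbours H2-T22 and H2-T23 had an r of 0.70 (exact p = 0.0380, adjusted 0.0967), a rho of 0.62 (exact p = 0.0674, adjusted 0.172) and an r of 0.69 without 2 libraries. Control replicate 4 was the lowest control for 7 of the 8 members, and control replicate 1 the highest for 5. Over all 28 pairs r ran from −0.27 to 0.95 with a median of 0.52. Without circTau6 replicate 5 the exact test of r left 3 of 28 pairs, with r from −0.37 to 0.96 and a median of 0.44. Without both choroid-poor libraries it left 2, with r from −0.38 to 0.96 and a median of 0.59.

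**Figure D3:**
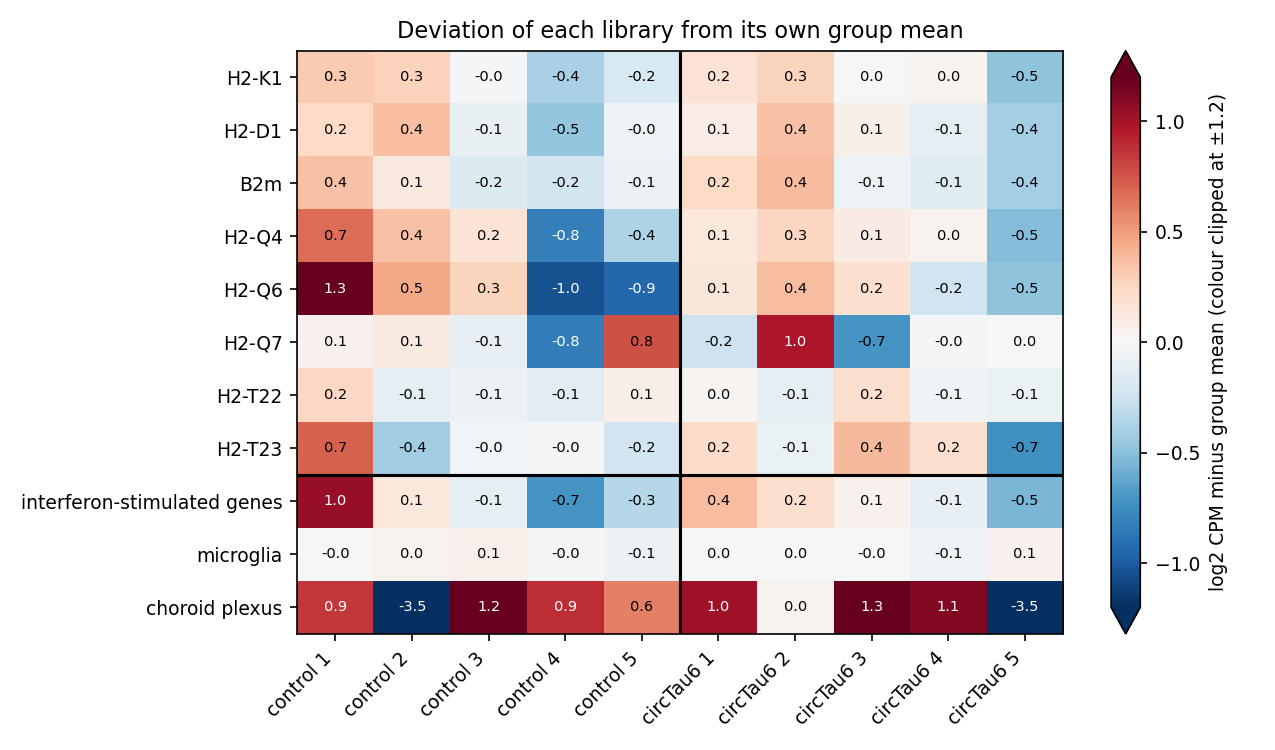
Deviation of each library (columns) from its own group mean in log2 CPM for the 8 members and for the mean of 3 gene lists (rows); red is above and blue below the group mean, and colours are clipped at the ends of the scale. H2-K1, H2-D1, B2m, H2-Q4, H2-Q6 and the interferon-stimulated genes are low in control replicate 4 and circTau6 replicate 5 and high in control replicate 1, while the microglia row stays near 0.

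Of 14 other gene lists set against the mean level of the members inside groups, 1 passed the same exact test: the 22 interferon-stimulated genes, such as Isg15 and Ifit1, whose transcription interferon switches on. Pearson r was 0.94 (exact p = 0.000694, adjusted 0.00972) and Spearman rho 0.95 (exact p = 0.000417, adjusted 0.00583), and r was 0.97 without the 2 libraries farthest from the median class I level. Over 12 alternatives r stayed between 0.92 and 0.97. The exact adjusted p rose to 0.170 without both choroid-poor libraries, to 0.0729 without circTau6 replicate 5 and to 0.0535 without control replicate 5. The class I gene regulators had an r of 0.82 (exact p = 0.0135, adjusted 0.0943), a rho of 0.71 (exact p = 0.0423, adjusted 0.209) and an r of 0.80 without 2 libraries. Microglia markers had an r of 0.08 (exact p = 0.856, adjusted 0.922), a rho of 0.25 (exact p = 0.547, adjusted 0.823) and an r of −0.09 without 2 libraries.

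The groups lay differently on the class I and interferon-stimulated scales. The mean level of the interferon-stimulated list in log2 CPM was 3.21, 2.28, 2.04, 1.45 and 1.81 in control replicates 1 to 5 and 3.10, 2.94, 2.78, 2.63 and 2.18 in circTau6 replicates 1 to 5. These ranges overlapped, and control replicate 1 was the highest of all 10. The mean class I level was 3.87, 3.53, 3.38, 2.89 and 3.26 log2 CPM in control and 4.36, 4.56, 4.29, 4.23 and 3.87 log2 CPM in circTau6 libraries. Control replicate 1 had an interferon-stimulated level above every circTau6 library and a class I level just below the lowest of them. The members were chosen by their difference between these groups, so nothing is read from how the 2 scales separate them. Whether the scales differ in this was not tested. All 22 interferon-stimulated genes had log2 fold changes above 0 (49.9% of all genes), with a median of 0.52. At an adjusted p under 0.05 edgeR called 0 of 22 and DESeq2 0. In edgeR 3 of 22 were higher at an unadjusted p under 0.05 (2.58% of all genes). Isg15, a ubiquitin-like modifier, had 0.95 ± 0.32 (SE) and the antiviral GTPase Mx1 0.97 ± 0.39 (SE). 

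**Figure D4:**
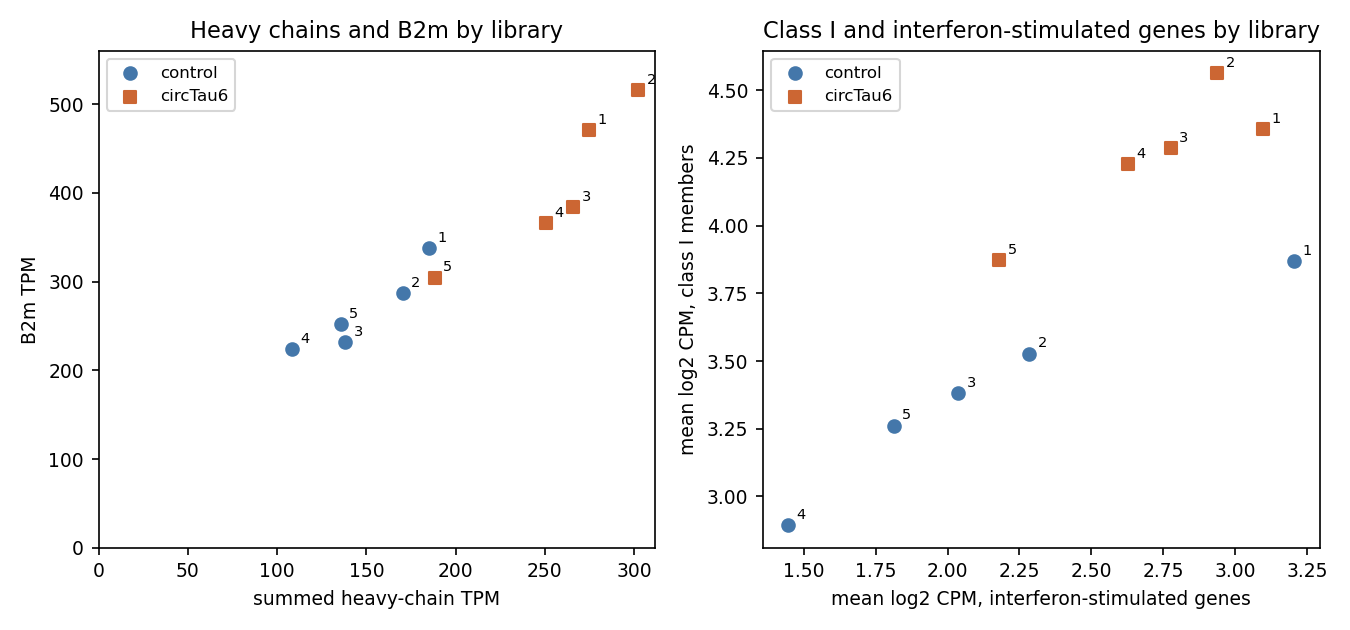
Left, B2m TPM against the summed heavy chain TPM; right, mean log2 CPM of the 8 members against that of 22 interferon-stimulated genes; each point is a library numbered by replicate, with control as circles and circTau6 as squares. On the right both groups run upward, and the circTau6 libraries lie at 3.87 to 4.56 log2 CPM of class I against 2.89 to 3.87 in control.

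By a fixed rule the 8 genes nearest to the members in their variation inside groups were taken from 12857 eligible genes, over 10 libraries. They were Ccna2, a cyclin of dividing cells (Pearson r 0.97), the acetyltransferase gene Naa40 (0.95), Ifit1 (0.95), the cathepsin S gene Ctss (0.94), the interferon-induced ubiquitin ligase gene Trim25 (0.94), Rabl3 (0.93), the galectin gene Lgals9 (0.93) and the zinc transporter gene Slc39a11 (0.93). Their Spearman rho ran from 0.77 for Trim25 to 0.96 for Ccna2 and Ctss. These are the highest of 12857 values and carry no test. Among class I pathway genes, Nlrc5 (r 0.86), Tap1 (0.85) and Psmb8 (0.81) ranked 48, 52 and 93. Between groups, Ccna2 had a log2 fold change of −0.25 ± 0.22 (SE), Naa40 of 0.01 ± 0.08 (SE), Ifit1 of 0.59 ± 0.54 (SE) and Ctss of 0.44 ± 0.07 (SE).

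Genes that cut peptides for class I and load them had small differences apart from a few. Of 14 measured, 0 passed the edgeR test over all genes in either direction and DESeq2 called 0. At an unadjusted edgeR p under 0.05 were 3 with higher values (2.58% of all genes) and 0 with lower values (1.85%). The list's median log2 fold change was 0.20, beside −0.0002 over all genes. Psmb8, a catalytic subunit of the immunoproteasome, had 5.86 ± 1.62 TPM in control and 12.2 ± 3.03 TPM in circTau6 libraries (SD, n = 5 each), with a log2 fold change of 1.03 ± 0.23 (SE). Tap1 and Tap2, the partner subunits of the transporter that moves peptides into the endoplasmic reticulum, had 0.78 ± 0.23 and 0.46 ± 0.12 (SE). Psmb9, another immunoproteasome subunit, had 0.72 ± 0.36 (SE). Psmb8, Tap1, Tap2 and Psmb9 have their genes in the MHC region too. General chaperones of the endoplasmic reticulum were on the other side of 0, with Calr at −0.12 ± 0.11, Pdia3 at −0.09 ± 0.09 and Canx at −0.02 ± 0.04 (SE).

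Among 25 regulators of class I genes 0 passed the edgeR test over all genes and DESeq2 called 0. At an unadjusted edgeR p under 0.05 were 2 with higher values (2.58% of all genes) and 1 with lower values (1.85%). The median log2 fold change was 0.10. Nlrc5, the class I transactivator, had 0.801 ± 0.438 TPM in control and 1.52 ± 0.442 TPM in circTau6 libraries (SD, n = 5 each), a log2 fold change of 1.09 ± 0.30 (SE) at 11 to 97 counts. Irf8, a transcription factor of microglia and other myeloid cells, had 0.38 ± 0.16 (SE) and the repressor gene Irf2 −0.18 ± 0.09 (SE). Irf1, which carries interferon signals to class I promoters, had 0.21 ± 0.15 (SE). Nfkb1, an NF-kB subunit gene, had 0.14 ± 0.07 (SE).

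The other class I heavy chains did not share the size of the members' differences in all cases. Of 21 listed genes 13 had a row and 3 passed the filter, with 0 called by edgeR, DESeq2 or an unadjusted p under 0.05. H2-T24, a non-classical chain of the T region at 8.16 ± 1.31 TPM in control and 8.55 ± 0.731 TPM in circTau6 libraries (SD, n = 5 each), had a log2 fold change of 0.04 ± 0.13 (SE). H2-M3, which presents N-formylated peptides, had 0.59 ± 0.29 (SE) at 13 to 33 counts, and H2-Q10, a secreted chain made by the liver, −0.07 ± 0.70 (SE) at 4 to 52 counts. H2-T3, H2-M1, H2-M9, H2-M10.1 and H2-M11 had 0 counts in all 10 libraries, which allows up to 0.17 to 0.203 CPM per library for counting error only. Whether these 3 genes differ from the members was not tested. Of 4 class I-like genes outside the region past the filter, 0 were called by edgeR or DESeq2 and 0 had an unadjusted p under 0.05, among them the neonatal Fc receptor gene Fcgrt at 0.19 ± 0.17 (SE) and Mr1, which presents vitamin metabolites, at 0.19 ± 0.26 (SE).

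**Figure D5:**
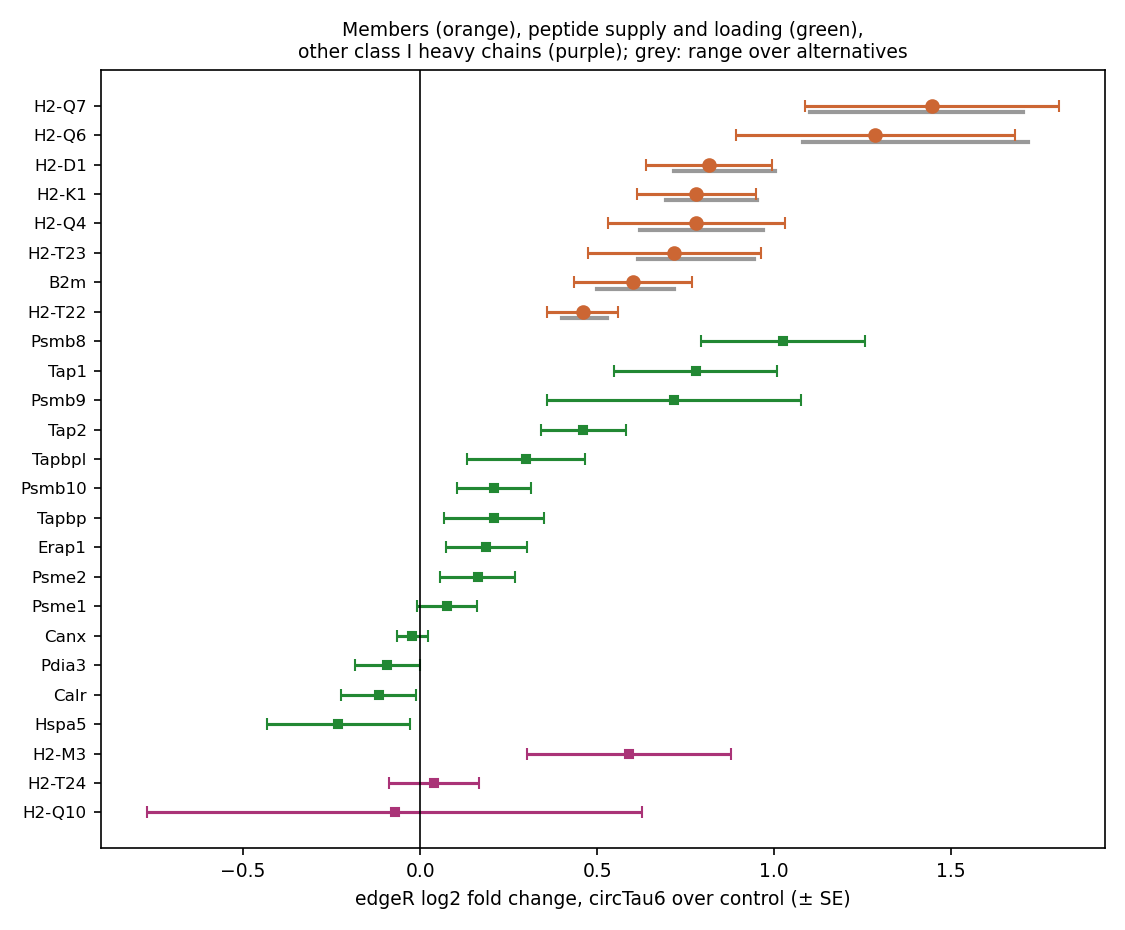
edgeR log2 fold change of circTau6 over control (x axis, points with SE bars) for the 8 members (orange), 14 genes of peptide supply and loading (green) and 3 other class I heavy chains (purple); the grey line below each member is its range over 18 alternatives. All 8 members lie between 0.46 and 1.45, and Canx, Pdia3, Calr, Hspa5 and H2-Q10 lie below 0.

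Receptors for class I were near the limit of detection. Of 11 measured, 2 passed the filter and 0 were called by edgeR or DESeq2, with 0 at an unadjusted p under 0.05. Pirb, an inhibitory receptor for class I on myeloid cells and neurons of mice, had 0.97 ± 0.49 (SE) at 3 to 40 counts, and Cd160 −0.09 ± 0.33 (SE) at 11 to 30 counts. Cd8a, the coreceptor of cytotoxic T cells, had 0 to 14 counts, with 0 to 0.167 TPM in control and 0.183 to 0.657 TPM in circTau6 libraries. Klrk1, the gene of the activating receptor NKG2D, had 0 to 7 counts, with 0 to 0.052 TPM in control and 0.14 to 0.694 TPM in circTau6 libraries. For both, every circTau6 library lay above every control. The share of 0.563% given above was taken over genes past the filter, so it is no background for these scarce genes. No such share was taken for genes below the filter. Neither passed the filter for edgeR, and their DESeq2 adjusted p were 0.940 and 0.713. Both are named because of their values. Of the other receptors below the filter, Cd8b1, Klrc1 and Cd244a had higher mean TPM after circTau6. Lilrb4a, Klrd1 and Klra2 had lower mean TPM, and none of these exceeded 15 counts. Klra17 was at 0 in all libraries.

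Levels of cell types that carry or meet class I are set beside these differences, and their part in them was not tested. The 11 microglia markers summed to 378 to 408 CPM in control and 411 to 439 CPM in circTau6 libraries. These ranges did not overlap, and 10 of 11 log2 fold changes were above 0 (49.9% of all genes) with a median of 0.14. EdgeR and DESeq2 called 0, with 5 of 11 higher at an unadjusted p under 0.05 (2.58% of all genes). Every circTau6 library exceeded every control for 1 of the 11, Tmem119 (0.563% of all genes). The log2 fold change of Tmem119 was 0.25 ± 0.08 and that of Csf1r 0.17 ± 0.06 (SE). The 10 endothelial markers summed to 244 to 291 CPM in control and 255 to 345 CPM in circTau6 libraries, with a median log2 fold change of 0.09. Border macrophage and monocyte markers summed to 10.2 to 19.96 CPM in control and 11.8 to 30.9 CPM in circTau6 libraries, with 5 of 10 past the filter. The median log2 fold change of these 5 was 0.31, with 4 of 5 above 0 (49.9% of all genes). Ccr2, a receptor of monocytes, had the largest, 1.52 ± 0.60 (SE) at 1 to 25 counts, with 1 of 5 circTau6 libraries above every control. F13a1 had 0.64 ± 0.34, Cd163 0.31 ± 0.31, Mrc1 0.29 ± 0.28 and Lyve1 −0.09 ± 0.45 (SE).

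T and NK cell markers were scarce, with sums over 10 genes of 1.54 to 3.60 CPM in control and 2.38 to 5.21 CPM in circTau6 libraries. Of these 2 passed the filter, Trac at 1.18 ± 0.45 and Lck at 0.27 ± 0.32 (SE). EdgeR called 0 of these 2 and DESeq2 0 of the 10, with 1 higher at an unadjusted edgeR p under 0.05 (2.58% of all genes). The CD3 chains of the T cell receptor complex, Cd3e, Cd3d and Cd3g, had a count in 8, 4 and 9 of 10 libraries, with at most 5, 2 and 17 counts. Cd3g had 0.384 ± 0.238 TPM in control and 1.17 ± 0.784 TPM in circTau6 libraries (SD, n = 5 each). In Cd3g 4 of 5 circTau6 libraries lay above every control, and no share over all genes was taken for that count. Klrb1c went the other way, with 0.116 ± 0.128 TPM in control and 0.039 ± 0.0872 TPM in circTau6 libraries (SD, n = 5 each) at 0 to 3 counts. Cd4, Nkg7 and Ncr1 had higher mean TPM after circTau6. The 8 B and plasma cell markers summed to 22.3 to 69.9 CPM in control and 18.1 to 171 CPM in circTau6 libraries. The 3 past the filter had the largest median of the lists, 1.32, with 0 at an unadjusted p under 0.05 in edgeR and 0 called by DESeq2: Jchain had a log2 fold change of 1.33 ± 0.84, Igkc of 1.32 ± 0.99 and Ighm of 0.57 ± 0.38 (SE). Astrocyte and oligodendrocyte markers had medians of −0.003 and −0.03 on the log2 scale. The 10 hippocampal neuron markers had a median of −0.05, with 2 of 10 above 0 and 2 lower at an unadjusted p under 0.05 (1.85% of all genes), Spink8 at −0.27 ± 0.10 and Neurod6 at −0.14 ± 0.06 (SE). EdgeR and DESeq2 called 0 of these 10. The 10 meningeal fibroblast markers had a median of 0.25 with overlapping sums of 233 to 443 and 203 to 574 CPM, and the 13 choroid plexus markers one of −0.006.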

How the data were processed

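The deposited file is a single table that, per the file headers, gives a count and a TPM value for each gene and library. Its counts are not normalized, and TPM is scaled by transcript length and library total. Per the submitters' processing notes, StringTie 1.3.1 and RSEM were used, with no role given. The deposited counts are whole, but 108 entries of 0 stand beside a TPM above 0, so they may be rounded estimates. The authors' own group means of TPM, log2 fold change, p-value and FDR are in the deposited table and were not used. Per the labels' protocols, libraries were strand-specific, made after depletion of ribosomal RNA, with paired reads of 150 bases.

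edgeR 4.0.16 (R 4.3.3) used filterByExpr, TMM scaling and the robust quasi-likelihood F test on all 10 libraries, with Benjamini-Hochberg adjustment over 14396 genes. The SE is the fold change over the root of F. Log2 CPM used a prior count of 2. As the labels do not tie libraries to separate mice, p-values reflect variation among these libraries, which may be technical. No 2 libraries of a group agreed within sampling noise. Alternatives were DESeq2 1.42.0, limma 3.58.1 (voom, and log2 TPM), RLE scaling, no filter, a replicate block and left-out libraries. Both tools were tested on simulated data. The members and lists were chosen with earlier results of these data known. Named genes are the members, up to 4 per list by lowest p, all class I heavy chains and receptors past the filter, Nlrc5 and Irf1, and the 8 nearest by likeness. Outside this rule, chosen after their values were seen, are Canx, Calr, Pdia3 and Hspa5, the genes at 0, and Lyve1, Cd3e, Cd3d and Cd3g. The same holds for Cd4, Nkg7, Ncr1 and Klrb1c, and for Cd8a, Klrk1 and the other receptors below the filter. Some genes the rule names are not reported here. Of 210 listed genes, 12 had no row. Upstream sequences are from RefSeq (GRCm38.p6), with 8 of 8 members matched by symbol, and for H2-K1 the first of 2 starts. Identity is over aligned bases of the longest coding sequence in GENCODE M21 (Biopython 1.88).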

Additional observations from a re-analysis of the deposited data

Results flagged for a closer look

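Of 48 groups of 5 values examined, 6 had a library far from the others of its group, and chance gives about 1 in 20. Control replicate 1 was high for H2-T23, at 21.7 TPM against 9.78 to 12.8 in the other controls. The same library was high for the mean of peptide supply and loading, at 4.58 log2 CPM against 4.30 to 4.35, and for the other class I heavy chains, at 1.93 log2 CPM against 0.64 to 0.97. CircTau6 replicate 2 was high for H2-Q7, at 10.6 TPM against 2.99 to 5.15. The choroid plexus list was low in control replicate 2, at 1.70 log2 CPM against 5.84 to 6.43, and in circTau6 replicate 5, at 1.67 log2 CPM against 5.22 to 6.51. Of the members, H2-K1 and H2-D1 had their lowest circTau6 value in that last library, but their highest control value in control replicate 2.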

How the results depend on the processing

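Under 18 alternatives the 8 members kept the sign of their log2 fold change and moved by less than 1 SD between replicates. Their median ran from 0.70 to 0.96, and the summed heavy chains ran from 0.69 to 0.94 under 11. Genes called over the whole table numbered 0 with edgeR, 11 with DESeq2, 2 without a filter on low counts, 3 without the 2 choroid-poor libraries and 0 to 4 when 1 library was left out, the 4 without circTau6 replicate 5. The labels do not say that equal replicate numbers mark shared litters or days, and of 5 same-numbered pairs 3 had a correlation of deviations above 0.1, from −0.08 to 0.14. Only 1 of 5 circTau6 libraries correlated best with its own number. With a replicate block edgeR called 4 genes, 2 of them members, H2-K1 and H2-D1, each at an adjusted p of 0.0229. As the members were chosen by this contrast, nothing is read from that call. Neighbours in the order of levels past the test numbered 5 under all 13 alternatives. Member pairs that passed by Pearson r numbered 3 to 10 when 1 library was left out and 2 without the choroid-poor libraries, and lists that passed 0 to 1 and 0. The cause was not tested. H2-Q6 and H2-Q7, at 12 to 115 and 7 to 86 counts, ran from 1.08 to 1.72 and from 1.10 to 1.70 on the log2 scale over the 18 alternatives.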
